A study of Homo sapiens with 4 samples.

Results

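The genes described here are those that make, remove, export and sense sphingosine-1-phosphate. They were chosen by name, from the symbols that the array's annotation gives to its probe sets. Of 10 listed genes, 9 could be read: the kinase SPHK1, the lyase SGPL1, the phosphatase SGPP1, the exporter SPNS2 and the receptors S1PR1 to S1PR5. They are 9 of 22411 genes with a value. No probe set of the annotation used here carried the symbol of the second kinase, SPHK2, and that gene was not analysed here. Dim probe sets were kept, so all 9 genes entered the fit over the 4 arrays.

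Sphingosine-1-phosphate is a signalling lipid made from sphingosine, the backbone that ceramidases release from ceramide. Sphingosine kinases add the phosphate, phosphatases take it off again, and the lyase splits the molecule irreversibly and so ends the sphingolipid pathway. The lipid leaves cells through transporters and binds G protein-coupled receptors, which are best known for guiding lymphocyte exit from lymphoid organs and for keeping blood vessels tight. In the intestinal epithelium the lyase is known for keeping the lipid low, and SPHK1 is known as a gene of high level in many colon tumours.

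The data are 4 Affymetrix arrays, which read whole transcripts, of HCT116, an established human colon cancer cell line. For 2 arrays the cells had been transiently transfected with a plasmid that expresses PRSS8, the membrane-anchored serine protease prostasin, and for the other 2 with the vector control. The labels number the arrays of each group 1 and 2 and call them biological replicates; they give neither the time to collection nor the share of cells that took up the plasmid. Values are log2 levels, and differences are PRSS8 minus control.

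The PRSS8 gene itself stood at 10.45 and 11.18 on the control arrays and at 18.55 and 18.07 on the PRSS8 arrays of replicates 1 and 2. The epithelial genes EPCAM, CDH1, KRT8, KRT18 and KRT19 lay above the median gene, at 7.95 to 15.05, whereas KRT20, CDX1, CDX2, VIL1, LGALS4 and CDH17 lay between 3.25 and 4.03 on the 4 arrays. Among 9 measured leukocyte markers no value exceeded 3.87, and among 8 endothelial markers none exceeded 4.53. Of 8 fibroblast and smooth muscle markers, DCN stood at 5.13 on the control array of replicate 2 and at 3.34 to 3.85 on the other arrays, and no other exceeded 4.51. No erythroid or platelet marker exceeded 3.96. The arrays differed more by replicate number than by plasmid. Pearson's r across genes (which are not independent replicates) reached 0.996 and 0.989 for the arrays that share number 1 or 2, and 0.930 and 0.934 for those that share the control or the PRSS8 plasmid. The median gene stood at 4.15 and 4.14 on the replicate 1 arrays (control and PRSS8) and at 4.31 and 4.26 on the replicate 2 arrays. Both replicate 2 arrays stood above both replicate 1 arrays in 54.0% of genes and below them in 25.2%. The number of arrays limits the precision of every value below.

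The enzymes that remove the lipid stood above the range of low values, while the kinase, the exporter and most receptors did not stand out from olfactory receptor genes, most of which are known from the nose. As a description of how low values look on each array, 366 olfactory receptor genes had medians of 3.23 and 3.21 on the replicate 1 arrays and of 3.48 and 3.49 on the replicate 2 arrays (control and PRSS8). SGPL1, SGPP1 and S1PR5 lay above the 95th percentile of these genes on all 4 arrays. SPHK1, SPNS2, S1PR1, S1PR2, S1PR3 and S1PR4 lay below it on all 4. Brightness also depends on the probes, so a value in this range does not show that a gene was silent, and no order of genes by level is drawn from it.

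**Figure D1:**
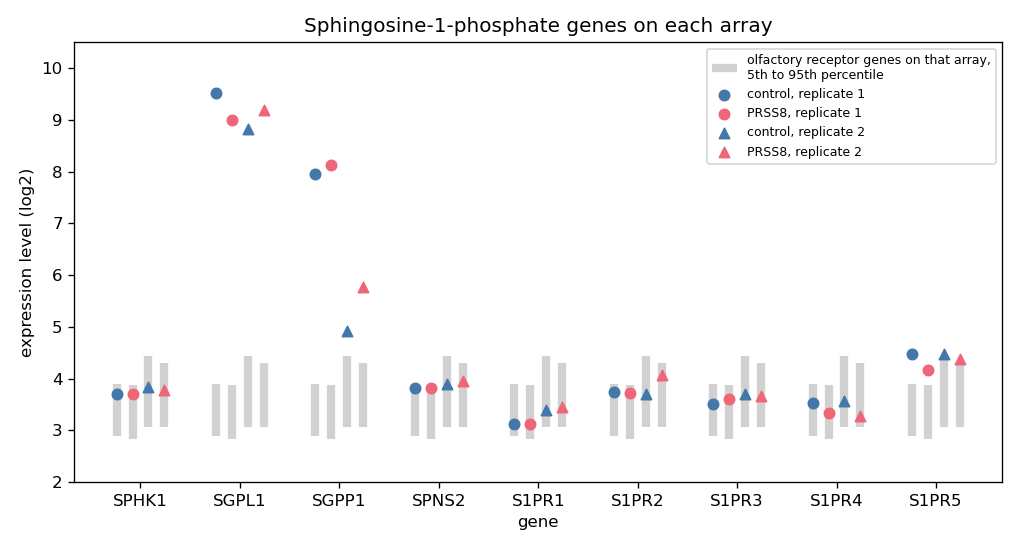
Log2 expression level (y axis) of each of the 9 genes (x axis) on the 4 arrays, with circles for replicate 1, triangles for replicate 2, blue for control and red for PRSS8; the grey bar behind each point spans the 5th to the 95th percentile of 366 olfactory receptor genes on that array. SGPL1, SGPP1 and S1PR5 stand above the bars on all 4 arrays, the other 6 genes lie within them, and SGPP1 is split by replicate number.

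The comparison asks how far these transcripts differ between HCT116 cells with and without the PRSS8 plasmid. None of the 9 genes passed the test. In limma, fitted across all genes, 0 of 22411 genes (0%) had a Benjamini-Hochberg adjusted p under 0.05, and 42 genes (0.187%) had an unadjusted p under 0.05, none of them among the 9. PRSS8 itself, with a fitted difference of 7.49 and an unadjusted p of 6.4e-05, also had an adjusted p of 1 after rounding in limma. Adding the replicate number to the fit brought its adjusted p to 0.076 in limma, still above the threshold. A gene that misses the threshold is thus not shown to be unchanged. Without the replicate number in the fit, each of the 9 had an adjusted p of 1 after rounding in limma. In 1 of the 9 genes, SGPP1, the PRSS8 array stood above the control array of the same number in both replicates, where 26.0% of all genes did. In 2 of the 9, S1PR4 and S1PR5, it stood below in both, where 24.5% of all genes did. The other 6 differed in opposite directions in the 2 replicates, as did 49.5% of all genes. The median difference over the 9 genes was −0.01 within replicate 1 and 0.07 within replicate 2, and over all genes it was −0.0012 and 0.0090. With 9 genes these shares are coarse, and nothing particular to the genes is read from them. In RNA from a whole culture, a difference in a share of the cells and a smaller one in all cells cannot be told apart.

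**Figure D2:**
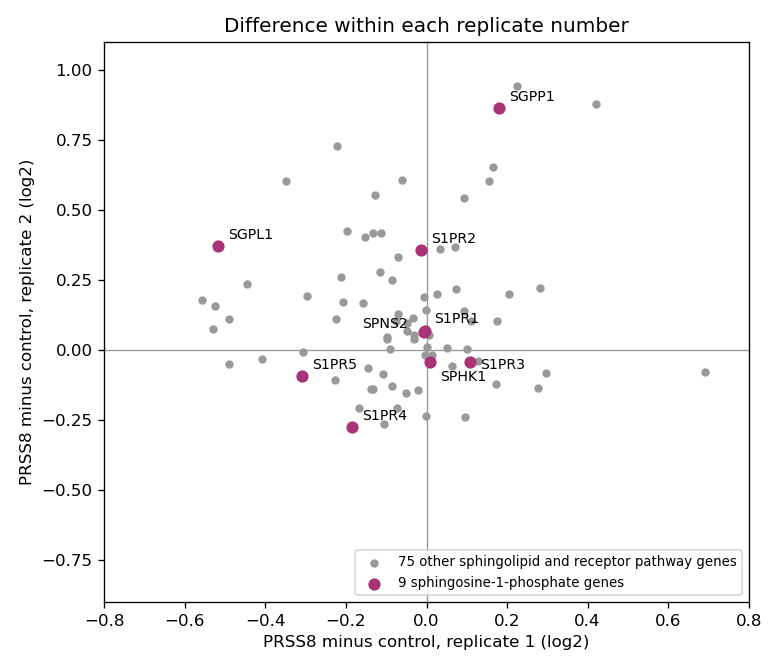
PRSS8 minus control on the log2 scale within replicate 1 (x axis) and within replicate 2 (y axis), with the 9 genes named in purple and 75 other genes of sphingolipid metabolism and receptor signalling in grey. SGPP1 lies at the upper right (0.18 and 0.87), S1PR4 and S1PR5 lie at the lower left, and SGPL1 lies at the upper left (−0.52 and 0.37).

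SPHK1 is the cytosolic kinase that phosphorylates sphingosine. It stood at 3.70 on the control array and 3.71 on the PRSS8 array of replicate 1, and at 3.83 and 3.79 in replicate 2. The 4 values spanned 0.13, and the PRSS8 values lay between the control values. The difference was 0.0085 within replicate 1 and −0.04 within replicate 2. Over the 4 arrays it was −0.02 (SE 0.13, 95% interval −0.36 to 0.33, limma), a sign that turned to 0.013 after median centring, 0.011 after cyclic loess and 0.0099 after quantile normalization. At this low level the interval bounds the array's signal and not the amount of the transcript or of the enzyme.

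SGPL1, the lyase of the endoplasmic reticulum membrane, showed the most discordant pairs of the 9 genes. In replicate 1 it stood at 9.52 on the control array and at 9.01 on the PRSS8 array, and in replicate 2 at 8.82 and 9.19. The control arrays held both its highest and its lowest value, and the PRSS8 arrays lay between them. Its difference was −0.52 within replicate 1, a value that 1.64% of all genes stood at or below, and 0.37 within replicate 2, which 88.2% of genes stood at or below. The fitted difference was −0.07 (SE 0.71, 95% interval −1.93 to 1.78, limma), so a change of either direction of the size seen within a replicate lies inside the interval. Whether the pairs differ from each other cannot be tested with 1 array per plasmid and number. The control mean was 9.17 ± 0.50 and the PRSS8 mean 9.10 ± 0.13 (SD, n = 2 each).

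SGPP1 encodes a phosphatase of the endoplasmic reticulum membrane that turns the lipid back into sphingosine. It stood at 7.95 on the control array and 8.14 on the PRSS8 array of replicate 1, but at 4.91 and 5.78 in replicate 2. Both replicate 1 arrays thus stood above both replicate 2 arrays, and the groups overlapped. SGPP1 was the only one of the 9 genes that differed by at least 1.5-fold between plasmids within a replicate. Its difference was 0.18 within replicate 1, or 1.13-fold, and 0.87 within replicate 2, or 1.82-fold. A gap of at least 1.5-fold was seen in 2.18% of all genes within replicate 1 and in 7.95% within replicate 2. The fitted difference was 0.52 (SE 1.304, 95% interval −2.88 to 3.93, limma). Adding the replicate number to the fit left it at 0.52, with an SE of 0.22 and a 95% interval of −0.04 to 1.08 (limma). With an array left out it lay between −0.997 (control replicate 2 left out) and 2.04; such fits carry part of the gap between the numbers.

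That gap between the replicate numbers exceeded any difference between plasmids among the 9 genes. Taken as replicate 2 minus replicate 1, the SGPP1 level differed by −3.04 in the control cells, or 8.23-fold, and by −2.35 in the PRSS8 cells, or 5.12-fold. A gap in that direction of at least the smaller of these, in both groups, was found in 577 of 22411 genes (2.57%). That share counts dim genes that had no room for such a fall. The median gene stood at 4.15 and 4.14 in replicate 1, and the lowest values in replicate 2 were 2.57 and 2.52 (control and PRSS8). How rare the gap is among genes as bright as SGPP1 was not tested. For the other 8 genes the replicate 2 arrays differed from the replicate 1 arrays by −0.70 to 0.34. SPHK1, SPNS2, S1PR1 and S1PR3 had both replicate 2 arrays above both replicate 1 arrays, which 54.0% of all genes had. That order depended on the scaling: under median centring, quantile normalization and cyclic loess SPHK1, SPNS2 and S1PR3 had it the other way round, and S1PR1 lost it under median centring. For SGPP1 the gap in control cells was −3.36, −2.83 and −2.86 under the 3 normalizations, in that order, and −2.60, −2.05 and −2.32 in PRSS8 cells. The labels call the numbers biological replicates but do not say how these differed, and the cause of the gap was not tested.

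**Figure D3:**
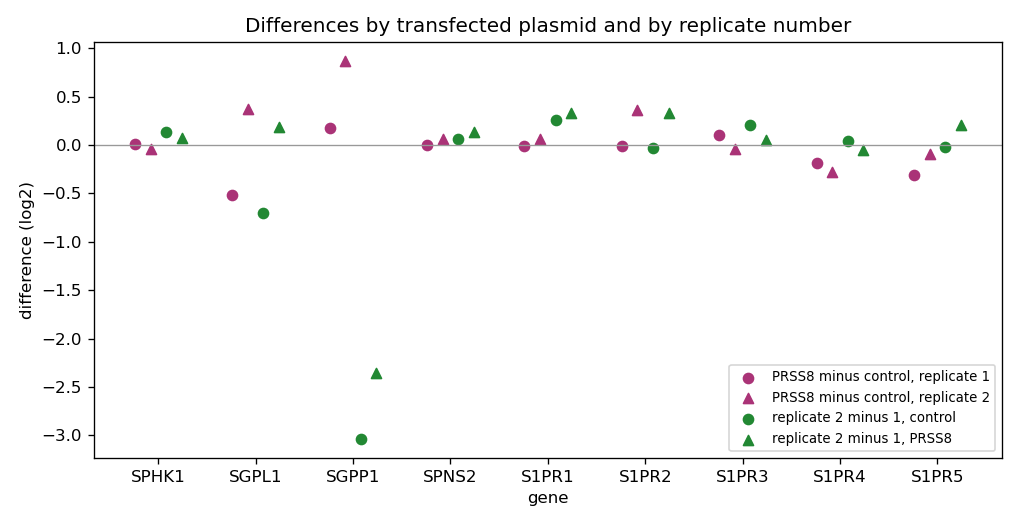
Differences on the log2 scale (y axis) for each of the 9 genes (x axis), in purple for PRSS8 minus control within replicate 1 (circles) and replicate 2 (triangles), and in green for replicate 2 minus replicate 1 in control (circles) and PRSS8 cells (triangles). SGPP1 has the widest gap between replicate numbers, at −3.04 and −2.35, while no difference between plasmids exceeds 0.87 in size.

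SPNS2 is the transporter that releases the lipid from endothelial cells. It stood at 3.83 on the control array and 3.82 on the PRSS8 array of replicate 1, and at 3.89 and 3.96 in replicate 2. The groups overlapped, and the difference was −0.0036 within replicate 1 and 0.07 within replicate 2. The fitted difference was 0.03 (SE 0.14, 95% interval −0.32 to 0.38, limma).

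Among the receptors, S1PR4 and S1PR5 were the genes in which both PRSS8 arrays stood below both control arrays. Such a separation downward was found in 5.56% of all genes, and upward, which none of the 9 genes showed, in 5.53%. S1PR4, a receptor known mainly from leukocytes, stood at 3.52 and 3.56 on the control arrays and at 3.33 and 3.28 on the PRSS8 arrays (replicates 1 and 2). Its group means were 3.54 ± 0.03 and 3.31 ± 0.03 (SD, n = 2 each). The difference was −0.19 within replicate 1 and −0.27 within replicate 2, and −0.23 over the 4 arrays (SE 0.12, 95% interval −0.55 to 0.09, unadjusted p = 0.13 in limma). Adding the replicate number to the fit gave a 95% interval of −0.44 to −0.01 (unadjusted p = 0.041, adjusted p = 0.94, limma). In that fit 5.24% of all genes had an unadjusted p under 0.05 in limma. All 4 values of S1PR4 lay in the range of the olfactory receptor genes, of which 24.9% to 84.4% were dimmer on the same array. The leukocyte markers had median levels of 3.44 and 3.39 on the replicate 1 arrays and of 3.66 and 3.66 on the replicate 2 arrays (control and PRSS8), and PTPRC, a marker of all leukocytes, stood at 3.21 to 3.74.

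S1PR5, known from natural killer cells and oligodendrocytes, stood at 4.48 and 4.47 on the control arrays and at 4.17 and 4.38 on the PRSS8 arrays. Replicate 2 minus replicate 1 was −0.01 for the control arrays and 0.20 for the PRSS8 arrays. The difference was −0.31 within replicate 1 and −0.09 within replicate 2, and −0.20 over the 4 arrays (SE 0.16, 95% interval −0.62 to 0.22, unadjusted p = 0.27 in limma). For S1PR4 and S1PR5 alike, an exact permutation test over the 6 ways to split the arrays gave p = 0.333 (two-sided), the smallest value it can give. Any gene whose groups do not overlap gives that value, so it adds nothing to the separation. The separation of the groups depended on the normalization. Under quantile normalization and cyclic loess it was kept for S1PR5 and lost for S1PR4, and under median centring it was lost for both, while the differences within both replicates stayed negative for both genes under these 3 normalizations.

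S1PR1 to S1PR3, the receptors of widest known distribution, had small or unlike differences. S1PR1, the receptor that lymphocytes follow out of lymphoid organs, stood at 3.13 on the control array and 3.12 on the PRSS8 array of replicate 1, and at 3.39 and 3.45 in replicate 2. Both replicate 2 arrays stood above both replicate 1 arrays, and the fitted difference was 0.03 (SE 0.18, 95% interval −0.45 to 0.51, limma). S1PR2, which couples to G12 and G13 proteins and restrains cell migration, stood at 3.74 and 3.73 in replicate 1 and at 3.71 and 4.06 in replicate 2 (control and PRSS8). The PRSS8 array of replicate 2 held its highest value and the other 3 arrays spanned less than 0.04. The difference was −0.01 within replicate 1 and 0.36 within replicate 2, with a fitted value of 0.17 (SE 0.17, 95% interval −0.26 to 0.60, limma).

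S1PR3 was read by 2 probe sets that disagreed. The brighter one, which stands for the gene by the rule of the highest mean, is annotated with C9orf47, now listed by RefSeq as an older symbol of S1PR3, but under another Entrez identifier. Whether it reads the receptor's transcript was not tested. It stood at 3.50 and 3.61 in replicate 1 and at 3.71 and 3.66 in replicate 2 (control and PRSS8), a difference of 0.11 and −0.04. The probe set annotated as S1PR3 stood at 3.27 and 3.14 in replicate 1 and at 3.53 and 3.40 in replicate 2, a difference of −0.13 within each replicate. The fitted difference was 0.03 (SE 0.14, 95% interval −0.33 to 0.40, limma) for the first and −0.13 (SE 0.17, limma) for the second. With the second probe set, 3 of the 9 genes were lower in both replicates, where 24.5% of all genes were.

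**Figure D4:**
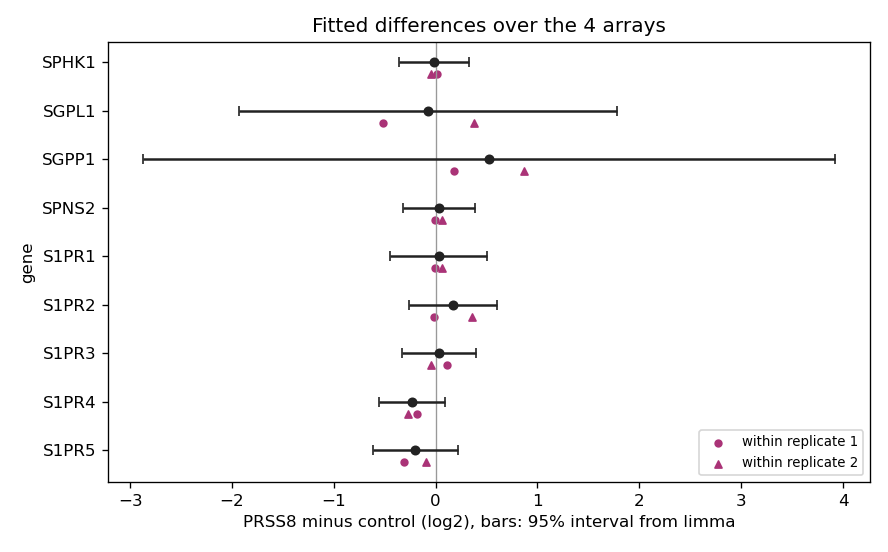
Fitted PRSS8 minus control difference on the log2 scale (x axis) for each of the 9 genes (y axis), with bars for limma's 95% interval over the 4 arrays and purple symbols for the differences within replicate 1 (circles) and replicate 2 (triangles). All 9 intervals, from the fit without the replicate number, include 0, and those of SGPL1 and SGPP1 are the widest.

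Of genes around this pathway, 75 were measured in a list chosen by role. Here 17 were higher and 16 lower in both replicates (22.7% and 21.3%, against 26.0% and 24.5% of all genes), 0 had an adjusted p under 0.05 in limma, and 0 had an unadjusted p under 0.05. Their median difference was −0.06 within replicate 1 and 0.10 within replicate 2. Each list that follows is short, and no direction of a list is read from its counts. The list around serine palmitoyltransferase, which starts sphingolipid synthesis, had 3 of 8 genes higher and 0 lower in both replicates. It counts regulators together with the enzyme, so it gives no direction of supply. In that group SPTSSA, a small subunit of the enzyme, stood at 6.73 and 6.96 in replicate 1 and at 5.76 and 6.71 in replicate 2 (control and PRSS8), a difference of 0.23 and 0.95. Ceramide synthases and desaturases had 1 of 7 higher and 0 lower, and the 1 gene was CERS3, at 0.05 and 0.0071. Ceramidases, which release sphingosine, had 0 of 5 higher and 1 lower, ACER3, at −0.31 and −0.0056. The lysosomal ceramidase ASAH1 differed by −0.56 within replicate 1 and 0.18 within replicate 2. Such opposite signs were seen in 42 of the 75 genes and in 49.5% of all genes.

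Genes that handle ceramide, sphingomyelin and glycolipids had 5 of 11 higher and 2 lower in both replicates, where 26.0% and 24.5% of all genes were. UGCG, which makes glucosylceramide, stood at 8.29 and 8.45 in replicate 1 and at 6.43 and 7.08 in replicate 2 (control and PRSS8). Its replicate 2 arrays were the lower ones, as in 29 of the 75 genes (38.7%) and in 25.2% of all genes. Of the 75, 56 lay above the median gene, and with dim genes left out the share over the genes kept was 46.9%. Over all genes it was 55.8% under median centring, 43.7% under quantile normalization and 43.1% under cyclic loess. No excess in the list is read from these shares. SMPD3, a neutral sphingomyelinase, differed by −0.11 and −0.09. The other phosphatases, transporters and carrier of the lipid had 2 of 9 higher and 5 lower, beside the same 26.0% and 24.5% of all genes. PLPP1, a lipid phosphatase of the cell surface, stood at 7.54 and 7.70 in replicate 1 and at 7.13 and 7.74 in replicate 2. Its PRSS8 arrays both stood above both controls, as in 5 of the 75 genes and in 5.53% of all genes. SGPP2, the second phosphatase of the SGPP1 family, differed by −0.13 and −0.14, at levels of 3.85 to 4.19. ALDH3A2, which oxidises the aldehyde that the lyase makes, differed by −0.49 and 0.11.

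Downstream of the receptors, G protein alpha subunits had 2 of 8 genes higher and 3 lower in both replicates. For this and the lists that follow, the shares over all genes were 26.0% and 24.5%. GNA13 differed by 0.09 and 0.54, and GNAZ by −0.17 and −0.21. Regulators of the receptors had 0 of 9 higher and 2 lower, with CD69, which draws S1PR1 off the surface of lymphocytes, at −0.11 and −0.26 and at levels of 3.17 to 3.50. Binding partners of the kinases had 4 of 8 higher and 0 lower, and with so few genes no direction is read from this. CIB1, a calcium-binding protein that carries SPHK1 to the plasma membrane, stood at 6.03 and 6.45 in replicate 1 and at 6.40 and 7.28 in replicate 2 (control and PRSS8). Both PRSS8 arrays stood above both controls, as in 5 of the 75 genes and in 5.53% of all genes. CIB1 differed by 0.42 within replicate 1 and 0.88 within replicate 2, with a fitted value of 0.65 (SE 0.47, 95% interval −0.58 to 1.88, limma). Related lipid receptors had 0 of 9 higher and 3 lower, with LPAR6 at −0.05 and −0.15.

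For the likeness of patterns SGPL1 was taken, as the gene whose probe set was brightest, which is a choice of a gene to describe and no ranking of transcripts. The genes whose 4 values, centred on their own mean, lay closest to its pattern among 22410 others were PSAP (distance 0.07 on the log2 scale), ANKH (0.09), SRPX (0.10), AREL1 (0.11) and CADM4 (0.13). PSAP stood at 12.31 and 11.74 in replicate 1 and at 11.51 and 11.92 in replicate 2 (control and PRSS8). It and the other 4 genes were lower on the PRSS8 array in replicate 1 and higher in replicate 2. Likeness over 4 arrays is a description, and 2742 genes lay within a distance of 0.5. A gene with 4 equal values would lie at 0.52, so a distance of 0.5 marks little likeness.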

How the data were processed

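The deposited table gives a log2 level for each probe set on each array, made by the authors with Affymetrix Expression Console 1.3.1 and RMA, per the submitters' processing notes. The 4 columns did not share one distribution, and the labels do not say whether one normalization covered all of them. No scanner files were used, so detection could not be computed.

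Of 70523 probe sets, 2995 control and exon-level ones were left out. GEO's platform annotation gave 1 symbol to 23781 probe sets, several to 1543 and no entry to 42204. Symbols were updated through RefSeq, by Entrez identifier for 21497 probe sets (1974 others were already current) and by a unique older symbol for 306. The probe set of highest mean stood for a gene. The build of the annotation is not named, so no coordinates are given.

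PRSS8 and control were compared in R 4.3.3 with limma 3.58.1 (lmFit, eBayes with intensity trend, two-sided), Benjamini-Hochberg adjusted over 22411 genes, without a block. The code was tested on simulated data with independent arrays and large added differences. That did not test the fit on arrays that deviate together by number, as these do. All listed genes were named; from each wider list, the gene of each direction with the largest smaller difference of the 2 replicates. ASAH1 and ALDH3A2, and S1PR3's second probe set, were chosen after values were seen. The genes and lists were chosen with earlier results of these data known. Alternatives were 3 normalizations, other variance models, the replicate block, the mean of probe sets, a filter at the median gene and leaving out each array. p-values measure the spread between arrays that the labels call biological replicates.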

Additional observations from a re-analysis of the deposited data

How the results depend on the processing

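No listed gene passed an adjusted p under 0.05 in limma under any alternative in which it was tested; with dim genes left out, SGPL1, SGPP1 and S1PR5 were tested and the other 6 were not. Over all genes the count was 0 to 62 with an array left out, 62 without control replicate 1 and 8 without control replicate 2, and 0 under every other alternative. Same-numbered arrays deviated together from their group means (Pearson's r of 0.91 across genes). The labels call the numbers biological replicates but do not say how these differed. With the replicate block 0 genes were called, 1174 genes (5.24%) and 1 of the 9, S1PR4, had an unadjusted p under 0.05, and the difference of S1PR4 was −0.23 (SE 0.09, adjusted p = 0.94, limma).

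Counts out of 9 moved with the scaling. Genes higher in both replicates were 3 under median centring (31.7% of all genes) and quantile normalization (30.6%) and 2 under cyclic loess (30.1%), against 1 (26.0%), as SPHK1 (under the first 2) and S1PR3 joined SGPP1. Genes whose groups did not overlap, in either direction, were 0 under median centring (15.0% of all genes), 1 under quantile normalization (15.7%) and 1 under cyclic loess (16.6%), against 2 (11.1%). With dim genes left out, 1 of the 3 was lower in both replicates (21.0% of the genes kept) and 1 had groups that did not overlap (10.3%).

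SPHK1 turned to 0.013 (median centring), 0.011 (cyclic loess) and 0.0099 (quantile). S1PR3 turned to −0.048 as the mean of its probe sets and to −0.13 by the probe set annotated S1PR3, an alternative chosen after seeing the data. With an array left out, differences ranged from −0.14 to 0.19 for S1PR1, −0.069 to 0.13 for S1PR3, −0.43 to 0.28 for SGPL1, −0.997 to 2.04 for SGPP1, −0.083 to 0.047 for SPHK1 and −0.037 to 0.10 for SPNS2. They kept their sign for S1PR2 (0.0046 to 0.34), S1PR4 (−0.25 to −0.21) and S1PR5 (−0.30 to −0.10). The turns came without control replicate 1 for S1PR1, S1PR3, SGPL1 and SPNS2, without control replicate 2 for SGPP1 and SPHK1, without PRSS8 replicate 1 for SGPL1, SGPP1 and SPHK1, and without PRSS8 replicate 2 for S1PR1 and SPNS2. The lone array was assumed to vary like the other group. The 6 genes in the olfactory receptor range have no measure of signal over background here.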
